A study of Mus musculus with 158 samples.

Results

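Open chromatin of whole lung was compared with that of bone marrow B cells in 5 F1 hybrid mice, over the 10 deposited sets of DNase I hotspots (5 of lung, 5 of B cells) among the 20 sets from adult tissues in the series. The mice carry 2 different parental genomes, and the liver and kidney sets of the series were not used here. All hybrids had a C57BL/6J (B6) mother. The hybrids are named for their fathers' strains, as B6x129, B6xC3H, B6xCAST, B6xPWK and B6xSPRET. Those of the last 3 are wild-derived, and that of B6xSPRET belongs to another species, Mus spretus. Lungs were taken whole with all lobes, usually from several pooled mice, so a set mixes epithelial, endothelial, mesenchymal and resident or circulating blood cells. B cells came from femoral marrow of 8-week-old females after magnetic removal of cells carrying CD43 or Mac-1, a negative selection that does not remove every other cell type. The study states for its mice in general that they were killed at 8 weeks of age. The sex of the lung donors is not given for each hybrid. The lung sets rest on 28 sequenced libraries (2 to 10 per set) and the B cell sets on 30 (2 to 10 per set). The authors pooled the libraries before calling hotspots, so each group has 5 values, and those values differ by hybrid, animals and depth together. The study gives the read depth of each set outside these files, and depth was not used here.

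DNase I cuts DNA where nucleosomes have been displaced by bound transcription factors, so a hotspot marks an active promoter, enhancer or insulator in at least some cells of the sample. Promoters of widely used genes are open in most tissues, whereas distal elements are far more cell-type selective. B cell identity is set by a small circuit of factors including PU.1, E2A, EBF1, PAX5 and the octamer factors with their coactivator OBF-1. Lung epithelium depends on NKX2-1, FOXA and CEBP factors, and lung endothelium and mesenchyme on ETS, SOX, FOXF1, TBX and TEAD factors. A whole lung holds many leukocytes, so part of its accessible DNA belongs to the same lineage as the B cells. In such a bulk sample, a site open in few cells and a site weakly open in all cells cannot be told apart.

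Hotspots were merged across the 10 autosomal sets wherever they shared at least 1 bp, which gave 448520 sites. A site was then described by the number of lung sets and of B cell sets with a hotspot in it. In total 43788 sites (9.76% of all sites) were present in all 5 lung sets and in no B cell set. The reverse class held 3504 sites (0.781%), or 5616 without B6xC3H and 5895 without B6xSPRET, and 33925 sites (7.56%) were present in all 10 sets. Sequences from the reference genome (GRCm38, the mm10 build; GENCODE vM21 gene models) are shown here for promoter sites that stand for the classes, because the promoters of marker genes let a reader see where each call was made. Capitals mark matches to any of the 25 short motifs counted later, on either strand, and each run is written 5′ to 3′ on the strand named. Sftpc encodes surfactant protein C of alveolar type 2 cells and Scgb1a1 the secretoglobin of airway club cells.
Sftpc, chr14:70524082-70524281, minus strand, the 200 bases before the start: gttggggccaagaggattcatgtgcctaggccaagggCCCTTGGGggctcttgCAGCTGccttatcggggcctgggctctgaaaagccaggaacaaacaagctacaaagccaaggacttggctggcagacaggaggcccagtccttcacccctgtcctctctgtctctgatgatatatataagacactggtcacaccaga
Scgb1a1, chr19:9087959-9088158, minus strand, the 200 bases before the start: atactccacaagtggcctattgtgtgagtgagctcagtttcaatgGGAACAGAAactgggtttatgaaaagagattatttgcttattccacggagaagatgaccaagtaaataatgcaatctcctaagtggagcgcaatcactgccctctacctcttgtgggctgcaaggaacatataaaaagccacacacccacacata

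Both of these lung promoter sites belonged to the class of 5 lung and no B cell sets. The Sftpc hotspot was 740, 462, 732, 849 and 597 bp wide in the lung of B6x129, B6xC3H, B6xCAST, B6xPWK and B6xSPRET, the order kept for all lists of 5 values from here on. Widths at Scgb1a1 were 575, 495, 544, 408 and 369 bp. No B cell set had a hotspot in either of them.

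The next sequences come from sites open in all 10 sets at genes of the blood lineage. Blk encodes a Src-family kinase of the B cell receptor pathway and Ptprc encodes CD45, the phosphatase on all nucleated blood cells. Positions at Ptprc are counted from an annotated start at 138175189. The outermost 5′ end of the gene is at 138175708, so the printed stretch lies inside the gene.
Blk, chr14:63417099-63417277, minus strand, bases -240 to -62 from the start: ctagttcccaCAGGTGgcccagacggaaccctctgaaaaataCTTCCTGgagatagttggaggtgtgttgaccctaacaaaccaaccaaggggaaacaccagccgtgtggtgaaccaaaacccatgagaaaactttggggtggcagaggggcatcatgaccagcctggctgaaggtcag
Ptprc, chr1:138175307-138175448, minus strand, bases -259 to -118 from the start: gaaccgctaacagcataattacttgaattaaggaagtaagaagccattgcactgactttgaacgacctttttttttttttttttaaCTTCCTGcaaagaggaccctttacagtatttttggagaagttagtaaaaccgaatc

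The Ptprc promoter hotspot was 434, 437, 303, 411 and 418 bp wide in lung and 2277, 1031, 2415, 2468 and 704 bp wide in B cells. At Blk the lung widths were 395, 214, 502, 378 and 232 bp and the B cell widths 3759, 1078, 3759, 3759 and 1567 bp. Both promoters were thus open in every set of whole lung, with a narrower hotspot there than in the B cells of any hybrid.

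Sites of the class open in all 5 B cell sets and in no lung set lay mostly away from promoters. Shown are the widest such site of the Blk locus, inside an intron, and the widest such sites in the genome, which lie in introns of Cd82, a tetraspanin gene, and of Akap2, a gene for a kinase anchoring protein. These sites were picked for width after the values were seen.
Blk intron, chr14:63410643-63410842, plus strand: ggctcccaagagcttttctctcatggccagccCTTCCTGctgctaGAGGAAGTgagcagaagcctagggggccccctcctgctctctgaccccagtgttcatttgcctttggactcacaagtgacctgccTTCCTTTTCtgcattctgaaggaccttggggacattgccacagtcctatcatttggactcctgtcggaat
Cd82 intron, chr2:93427680-93427879, plus strand: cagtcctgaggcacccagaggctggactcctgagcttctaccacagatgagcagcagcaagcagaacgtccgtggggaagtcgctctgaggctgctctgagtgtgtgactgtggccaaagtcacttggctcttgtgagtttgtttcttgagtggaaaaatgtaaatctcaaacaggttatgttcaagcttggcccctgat
Akap2 intron, chr4:57755306-57755505, plus strand: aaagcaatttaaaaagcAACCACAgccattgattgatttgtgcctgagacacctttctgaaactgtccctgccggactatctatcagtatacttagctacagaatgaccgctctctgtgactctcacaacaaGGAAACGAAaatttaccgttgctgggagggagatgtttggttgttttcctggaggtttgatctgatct

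The Blk intron site was 467, 392, 440, 431 and 360 bp wide in B cells. Its printed stretch holds matches to the PU.1 motif, to the ETS motif in the form without a CpG and to the core of the interferon response element. The Cd82 site was 1659, 1580, 1718, 1623 and 1657 bp wide and the Akap2 site 1272, 943, 1460, 1514 and 919 bp wide. The Cd82 stretch holds none of the 25 motifs, which says only that these letters are not in that window.

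**Figure D1:**
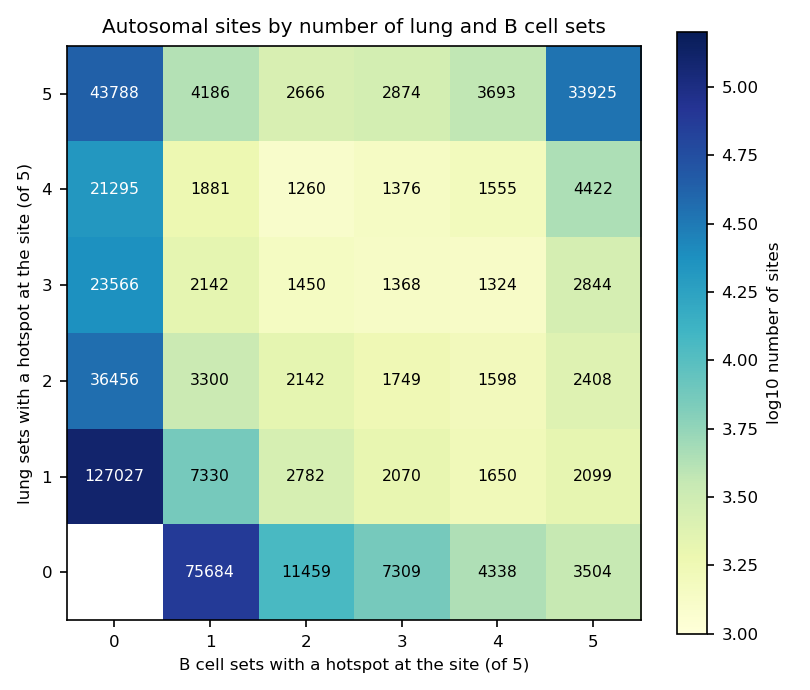
Number of autosomal sites by how many of the 5 lung sets (vertical axis) and of the 5 B cell sets (horizontal axis) had a hotspot, with colour on a log10 scale. The corner of 5 lung and 0 B cell sets holds 43788 sites, the opposite corner 3504, and the corner of all 10 sets 33925.

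The size of the classes has to be read against the size of the sets. Lung sets held 253858, 147871, 273104, 188589 and 164864 autosomal hotspots, and B cell sets 114072, 76055, 151020, 130084 and 88838. Lung had more in every hybrid, with means of 205657 ± 55152 against 112014 ± 30341 (SD, n = 5), although the ranges of the groups overlapped (exact two-sided permutation test, p = 0.0159, adjusted over 4 tests p = 0.0317). With any hybrid left out the adjusted p lay between 0.0571 and 0.114 (4 hybrids, exact permutation test). Covered length was 82.1, 42.8, 94.5, 58.6 and 56.0 Mb in lung and 53.4, 28.2, 66.9, 53.3 and 34.6 Mb in B cells. Lung covered more in each of the 5 hybrids. Taken without the pairing, that difference was within the spread between hybrids (66.8 ± 21.0 against 47.3 ± 15.7 Mb, SD, n = 5, exact two-sided permutation test, p = 0.135). A paired exact test by sign flips within hybrids gave p = 0.0625, the smallest that 5 pairs can give. When each set was cut to its 70000 highest-scoring hotspots, the classes held 16370 lung sites and 11738 B cell sites, a ratio of 1.39 in place of 12.5. Counted as base pairs without merging, the classes covered 13.4 Mb and 2.56 Mb, a ratio of 5.25. More sites were exclusive to lung than to B cells under each of these counts, but how many more depended on the number of hotspots called in a set.

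Sites just outside the classes followed the size of the sets as well. Of the 2099 sites in all 5 B cell sets and exactly 1 lung set, 53.9% had their lung hotspot in B6xCAST and 2.00% in B6xC3H, the largest and the smallest lung set. Of the 4422 sites in all 5 B cell sets and 4 lung sets, 59.8% lacked only the B6xC3H lung. B6xC3H was also the set most often lacking from the 3693 sites in all 5 lung sets and 4 B cell sets (71.3%). The narrowest of the 5 B cell hotspots had a median of 192 bp at sites with no lung set and of 225 bp at sites with 1 lung set. For lung the same value was 235 bp with no B cell set and 245 bp with 1.

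Sharing was strongly unequal between promoters and distal sites and between the directions. Of the 49202 sites open in all 5 B cell sets, 68.9% were also open in all 5 lung sets, 23.9% in 1 to 4 of them and 7.12% in none. Within 1 kb of a transcription start the share in all 5 lung sets was 90.6%, and farther away it was 60.7%. Of the 91132 sites open in all 5 lung sets, 37.2% recurred in all 5 B cell sets, whereas 48.0% had no B cell hotspot. Near starts 67.9% of them were open in all 5 B cell sets, and farther away 29.6%. The 95% Wilson intervals of these shares span less than 2 percentage points and cover counting error only. Over whole sets the share of hotspots within 1 kb of a start was 16.4 ± 2.71% in lung and 21.4 ± 3.85% in B cells. Taken without the pairing, this was within the spread between hybrids (SD, n = 5, exact two-sided permutation test, adjusted p = 0.0952). B cells had the higher share in each of the 5 hybrids (paired exact test by sign flips, p = 0.0625, the smallest that 5 pairs can give). Sites open in all 10 sets lay near a start in 36.3% of cases, against 8.24% for the lung class, 6.14% for the B cell class and 9.44% of all sites.

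Within hybrids, 30.07%, 31.53%, 31.95%, 37.10% and 32.44% of lung hotspots overlapped the B cell set of the same hybrid, and 60.4%, 59.0%, 54.0%, 48.4% and 58.6% of B cell hotspots overlapped lung. The groups did not overlap (32.6 ± 2.66% against 56.1 ± 4.94%, SD, n = 5, exact two-sided permutation test, p = 0.00794, the smallest that 5 against 5 values can give, adjusted p = 0.0317). With any hybrid left out the adjusted p was again between 0.0571 and 0.114 (4 hybrids, exact permutation test). With the 70000 highest-scoring hotspots of each set the difference was 0.494 percentage points in the other direction (n = 5, exact permutation test, p = 0.675). A test by sign flips within hybrids cannot go below p = 0.0625 with 5 pairs, so none of the differences between tissues given here can pass 0.05 in that paired form. The Jaccard index is the length shared by a lung and a B cell set divided by the length covered by either. It was 0.297, 0.309, 0.285, 0.279 and 0.304 for sets of the same hybrid (mean 0.295 ± 0.0127, SD, n = 5) and averaged 0.273 ± 0.02004 (SD, n = 20) for sets of different hybrids. Of all 120 ways to pair lung with B cell sets, the true pairing gave the highest mean overlap (exact two-sided permutation test, p = 0.0167, the smallest possible). The part of depth in this difference was not tested.

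The deposited sets were first set against markers of the labelled tissues. The lists of marker genes were drawn up with earlier results of these data known, so they are not an independent check. A promoter was called open in a set when a hotspot lay within 500 bp of any annotated start. Promoters of 23 of 24 lung epithelial genes, 19 of 20 endothelial genes and 18 of 21 mesenchymal and smooth muscle genes were open in all 5 lung sets. Of the 34 B lymphoid genes, 29 were open in all 5 B cell sets. Of all 20807 autosomal protein-coding genes, 13521 were open in all 5 lung sets and 11590 in all 5 B cell sets. The other members of the B lymphoid list were Igll1, open in 1 B cell set, Rag1 and Rag2, open in 1 each, and Vpreb2 and Dntt, open in none. These genes serve the surrogate light chain, V(D)J recombination and junctional diversity of B cell precursors. All 10 sets lacked any hotspot base in the Hba-a1 locus, and Hbb-bt, a beta globin gene of red cells, had 550, 285, 609, 891 and 436 covered bp in B cells against 0, 0, 0, 0 and 65 bp in lung. Hbb-bt shares near-identical sequence with its neighbour, so its reads may be incompletely placed.

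Of all 20807 autosomal protein-coding genes, 4.50% had a promoter open in all 5 lung and no B cell sets, 0.0625% the reverse, 54.4% were open in all 10 sets and 21.0% in none. The 13 genes of the reverse class were Prg3, Myl10, Sdhaf1, Cdhr5, Angptl6, Fbxw13, Prss43, Il9r, Lsmem1, Slc17a4, Eppk1, Sapcd1 and Cabp4, none of them on a list used here. Lung markers had a larger share in the lung class than all genes. It held 9 of 24 lung epithelial genes (37.5%), 6 of 20 endothelial genes (30.0%) and 8 of 21 mesenchymal genes (38.1%). The lung epithelial members were Sftpc, Sftpb, Sftpa1 and Sftpd of surfactant, Lamp3 of lamellar bodies, Slc34a2, a phosphate carrier, Aqp5, a water channel, Cldn18, a tight junction protein, and Scgb1a1. The endothelial members were Tek, Tie1, Cldn5, Robo4, Nos3 and Sox18. Among mesenchymal genes they were Col1a2, Eln, Tagln, Des, Tcf21, Tbx5, Wnt2 and Foxf1.

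Covered length over a gene's locus (the gene and 10 kb upstream) shows how far this separation went at single members of the lung class. Sftpc had 3494, 1902, 5233, 3475 and 2473 covered bp in lung and 16, 0, 2, 0 and 0 bp in B cells. Wnt2, a growth factor of lung mesenchyme, had 4383, 2300, 6057, 4046 and 3084 bp in lung and none in any B cell set. Tek, the receptor of angiopoietins, had 10340, 5967, 12755, 8457 and 9334 bp in lung and 198, 0, 185, 76 and 0 bp in B cells. The lung values lay above all B cell values at each of these genes, but not at every member of the class. Tagln had 2129, 884, 2307, 1642 and 1469 bp in lung and 2081, 1474, 2268, 1679 and 1734 bp in B cells. Nos3 had 2795, 1579, 3437, 2208 and 1377 bp in lung and 1760, 1263, 1472, 1429 and 1266 bp in B cells. Both overlapped between tissues, although lung had more at Nos3 in every hybrid. Tek also held 14 sites of the lung class, the most of any listed endothelial gene, followed by Flt1 with 9 and Erg with 8. Erg, an ETS factor shared with blood stem cells, held 2 sites of the B cell class too, and covered 7140, 2794, 8949, 3473 and 3850 bp in B cells against 8542, 4585, 12653, 7267 and 7334 bp in lung.

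Several listed lung genes were open in every set of both tissues. Among the epithelial genes these were Abca3, Napsa, Hopx, Rtkn2, Foxj1, Foxa1 and Epcam, and among the endothelial genes Pecam1, Cdh5, Kdr, Esam, Vwf and Egfl7. Pecam1 encodes an adhesion molecule that leukocytes and platelets carry as well, and it covered 13295, 6295, 14580, 9228 and 9694 bp in lung and 9338, 5740, 13279, 12237 and 6874 bp in B cells, so its ranges overlapped. The promoter of Nkx2-1, the master regulator of lung epithelium, was open in 5 lung sets and 1 B cell set, with 7728, 1406, 4676, 2801 and 3138 covered bp against 248, 168, 284, 373 and 247 bp.

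Outside the lists, the autosomal genes with most sites of the lung class were long ones. Gm20388 held 179, Fgfr2 113, Gm37240 50 and Rbms3 47, followed by Lrmda and Nav2 with 45 each, Nckap5 and Rad51b with 40, and Mecom and Rora with 39. Gm20388, Gm37240 and Fgfr2 span 4445, 1401 and 2971 kb in this annotation, through models that run over their neighbours, so their counts are not those of 1 gene. Rbms3, an RNA-binding protein gene, had no site in the B cell class and none open in all 10 sets. Mecom, a zinc finger regulator, held 1 site open in all 10. Per 100 kb, among genes with at least 5 such sites, the leading ones were Cryab, a small heat shock protein (39.2 per 100 kb), 2310007B03Rik (35.7), 2310030G06Rik (35.6), Prss8, an epithelial protease (34.7), Gpr182, an endothelial receptor (34.6), Serpinh1, a collagen chaperone (33.6), Cdc42ep1 (32.8), Sema3b (32.5), Smbd1 (31.8) and Mrpl14 (31.6). Over all genes, 44.8% had at least 1 site of the lung class in their locus and 8.97% at least 1 of the B cell class.

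The widest sites of the lung class, by the narrowest of the 5 hotspots, included 1 over Ccn1, a matricellular gene, at chr3:145645596-145651132. The widest of all lay between genes at chr6:127852954-127855140, with 1990, 1821, 1890, 1971 and 1892 bp and the nearest start, that of Tspan11, 32449 bp away. The others lay between genes as well, with Tes, Lrig1 and Cdkn2b as the nearest starts. Sites open in all 10 sets were widest at Jun, Ppp2r3d, Tgif1, Nr3c1 and Bhlhe40, most of which encode inducible transcription regulators. The Jun hotspot measured 4436, 4315, 4485, 4619 and 6240 bp in lung and 4472, 3882, 4505, 4598 and 4232 bp in B cells.

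The genes with the most sites of the B cell class included several regulators of B cells. Besides Gm20388 (19) and Fgfr2 (9), most were found at Foxp1 (14), Gm20696, which overlaps Foxp1 (8), Snx29 (8), Lpp (7), and Arid1b, Bcl2, Celf2 and Ebf1 (6 each). Foxp1, Snx29, Lpp, Arid1b and Celf2 held more sites of the lung class (17, 14, 24, 21 and 20), and their loci span 363 to 980 kb. Gm20696 held 8 of the lung class, while Bcl2 and Ebf1 held only 3 and 2. Foxp1 encodes a forkhead repressor needed for B cell development, Bcl2 the anti-apoptotic protein and Ebf1 the factor that specifies the B lineage. Per 100 kb the highest values were those of Blk (9.22), Ets1, an ETS factor of lymphocytes (4.56), Sema4d, a semaphorin known as CD100 (4.23), Pan3 (3.90), Retreg1 (3.56), Tbl1xr1 (3.33), Tmem131l (3.28), Bcl2 (3.22), Fchsd2 (2.48) and Med13l (2.33). Every gene named here by density had its promoter open in all 10 sets. Only 30 genes had 5 or more sites of the B cell class, against 1751 for the lung class.

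The Ebf1 locus, chr11:44617317-45008091 with 10 kb upstream, shows the mixture. It held 35 sites open in all 5 B cell sets, of which 10 were open in all 5 lung sets and 6 in none. Covered length was 34003, 19772, 40365, 39628 and 24097 bp in B cells and 15531, 3960, 17905, 5948 and 6823 bp in lung. The B cell values lay above all lung values. Pax5, which holds B cells to their fate, covered 27464, 14953, 37601, 28309 and 15876 bp in B cells and 8535, 2290, 12368, 3825 and 5983 bp in lung, again without overlap. Bach2, a repressor used by B and T cells, held 19 sites of the lung class and 1 of the B cell class. Its covered length overlapped between tissues, without allowing for the larger total covered length of lung in every hybrid. Lung had 29447, 17509, 37511, 27292 and 21681 bp there, and B cells had 27797, 15834, 35160, 25066 and 14372 bp.

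The immunoglobulin kappa cluster held the densest group of B cell sites. Between its first and last annotated segments, chr6:67555497-70726966, 43 sites were open in all 5 B cell and no lung sets, and none in the reverse class. It held 306, 194, 389, 321 and 224 hotspots in B cells and 97, 27, 127, 78 and 85 in lung. The 1 Mb window with the most B cell sites in the genome, chr6:69000001-70000000, lay inside it with 25. The heavy chain cluster on chromosome 12 held 4 such sites and the lambda cluster on chromosome 16 held 3, and neither held a lung site. In the T cell receptor alpha and delta cluster on chromosome 14 the lung class held 4 sites and the B cell class none, and in the beta cluster 1 and none, while the gamma cluster held no site of either class. The gene segments are near-copies of each other, so reads there may be incompletely placed.

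Most blood genes open in B cells were open in whole lung too, as were most genes of any kind. Of all genes with a promoter open in all 5 B cell sets, 11317 of 11590 were open in all 10 sets. The counts were 32 of 32 for pan-haematopoietic, 9 of 10 for MHC class II and 24 of 29 for B lymphoid genes. B lymphoid promoters were thus shared less often than promoters in general. The promoters of all 32 pan-haematopoietic genes (100%, against 54.4% of all genes) were open in all 10 sets, as were those of 24 of 34 B lymphoid genes (70.6%) and 9 of 10 genes of MHC class II presentation (90.0%). The pan-haematopoietic genes include Ptprc, Spi1, the gene of PU.1, Ikzf1, the gene of IKAROS, Coro1a, Laptm5 and the integrin chains Itgb2, Itgal and Itga4. No gene of these lists had a promoter open in all 5 B cell and no lung sets. Only 13 of all 20807 genes (0.0625%) had one, so lists of this size would hardly hold any. Cd79a, Cd79b and Il7r, and H2-Oa of the class II list, were open in all 5 B cell sets and in all lung sets but that of B6xC3H. Fcrla, an Fc receptor-like gene of B cells, lacked the lung of B6x129, B6xC3H and B6xSPRET. Vpreb1 was open in all 10 sets, but its start lies within 1 kb of that of Top3b, a gene of all cells. Of the reference genes used by all cells, 9 of 10 were open in all 10 sets.

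Genes of T, NK and myeloid cells had more promoters open in all 5 sets of lung, the tissue with the larger sets, than in all 5 of B cells, and so did all genes (13521 against 11590 of 20807). Of 31 T and NK cell genes, 15 were open in all 5 lung sets and 10 in all 5 B cell sets, with 8 in both. Cd3e, Cd6 and Ncr1 were open in 3 lung sets and no B cell set, whereas Tbx21 and Klrd1 were open in 4 lung sets and 5 B cell sets. Of 24 myeloid genes found in the annotation (25 were listed), 13 were open in all 5 lung sets, 7 in all 5 B cell sets and 6 in both. Lyz2, the lysozyme of macrophages, and S100a8, a calgranulin of neutrophils, were open in 5 lung sets and 1 B cell set. Marco leaned the other way, open in 3 lung sets and 5 B cell sets. Tyrobp was open in all 10 and covered more in B cells in every hybrid (2132, 1061, 2531, 5566 and 1224 bp against 1187, 485, 1116, 807 and 854 bp). Lyz2 covered 2773, 1011, 3443, 817 and 1241 bp in lung and 0, 77, 883, 206 and 128 bp in B cells, and the groups overlapped only in that the B6xCAST B cells exceeded the B6xPWK lung. Of 18 erythroid and megakaryocyte genes, 7 were open in all 5 lung sets and 8 in all 5 B cell sets, with 6 in both. Of 5 plasma cell genes, Prdm1, Xbp1 and Sdc1 were open in all 10.

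Distal sites separated the tissues more than promoters did. In the loci of all autosomal genes, 71.3% of the 35430 sites open in all 5 B cell sets were open in all 5 lung sets, 22.3% in 1 to 4 and 6.46% in none. For the B lymphoid genes the shares were 45.7%, 38.7% and 15.6% of 199 sites. For the pan-haematopoietic genes they were 61.7%, 33.0% and 5.34% of 206 sites, and for MHC class II presentation 56.1%, 34.1% and 9.76% of 41 sites. These lists thus held fewer sites common to all lung sets than genes in general, and more sites found in only some of the lung sets. Near starts the share in all 5 lung sets was 74.0% of 50 sites for B lymphoid genes and 85.7% of 63 for pan-haematopoietic genes, against 90.5% in all loci. Farther than 1 kb away it was 36.2% of 149 and 51.0% of 143, against 59.3%. T and NK cell genes (53.8% of 52 sites) and myeloid genes (52.3% of 44) were also low, whereas erythroid and megakaryocyte genes (79.2% of 24), lung epithelium (82.8% of 29), endothelium (30 of 40 sites), mesenchyme (90.9% of 22) and the reference genes (100% of 23) were not. Plasma cell genes had 63.6% of 11. The share of T and NK cell genes was 60.3% and that of myeloid genes 62.3% without B6xC3H, and with 50 kb on each side of the genes they were 69.0% and 69.5%.

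**Figure D2:**
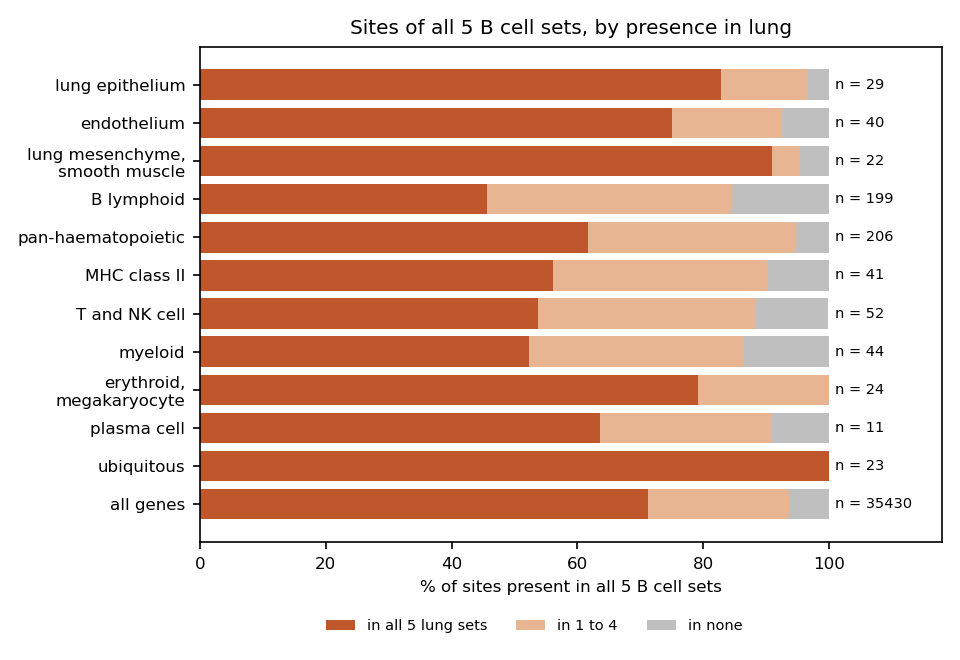
Sites open in all 5 B cell sets within the loci of each gene list, divided by whether all 5, 1 to 4 or no lung set had a hotspot there, in percent of the n sites at the right of each bar. B lymphoid genes show the lowest share in all 5 lung sets, 45.7%, against 71.3% for all genes.

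The choice of hotspots moved these shares, with B lymphoid, pan-haematopoietic and MHC class II genes still below all loci. With the 70000 highest-scoring hotspots per set the shares in all 5 lung sets were 23.7% for B lymphoid, 27.7% for pan-haematopoietic and 36.8% for MHC class II genes, against 52.2% for all loci. Within hybrids, 43.1%, 36.3%, 35.7%, 28.5% and 41.3% of the B cell hotspots in B lymphoid loci overlapped a lung hotspot of the same hybrid. In all gene loci 63.8%, 63.1%, 57.7%, 51.3% and 62.4% did, a higher share in each of the 5 hybrids. For pan-haematopoietic loci the shares were 62.7%, 53.0%, 54.0%, 51.9% and 57.5%, below all loci in 4 hybrids and above in B6xPWK. For myeloid loci they were 70.8%, 60.7%, 64.4%, 51.4% and 60.9%, above all loci in 3 of 5 hybrids. For T and NK cell loci they were 61.6%, 46.2%, 57.2%, 54.0% and 52.9%, above all loci in B6xPWK only.

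Sites of B lymphoid, pan-haematopoietic and MHC class II genes that were open in all 10 sets had mostly wider hotspots in B cells. At the 91 sites of B lymphoid genes open in all 10 sets, the median ratio of B cell to lung width was 2.42, 1.74, 2.19, 2.43 and 1.77. At the 127 pan-haematopoietic sites it was 1.68, 1.58, 1.85, 2.04 and 1.49, and at the 23 MHC class II sites 2.00, 1.77, 2.22, 2.02 and 1.83. Over all 25252 such sites in gene loci it was 1.26, 1.06, 1.23, 1.41 and 1.11, so each of these lists lay above the background in every hybrid. The share of sites wider in B cells in all 5 hybrids was 73.6% for B lymphoid, 67.7% for pan-haematopoietic and 78.3% for MHC class II genes, against 38.7% for all loci. T and NK cell genes had 57.1%, plasma cell genes 57.1%, myeloid genes 47.8%, lung epithelial genes 41.7%, mesenchymal genes 35.0%, endothelial genes 33.3%, erythroid and megakaryocyte genes 26.3% and reference genes 26.1%. Hotspot width can depend on read depth, whose part was not tested.

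**Figure D3:**
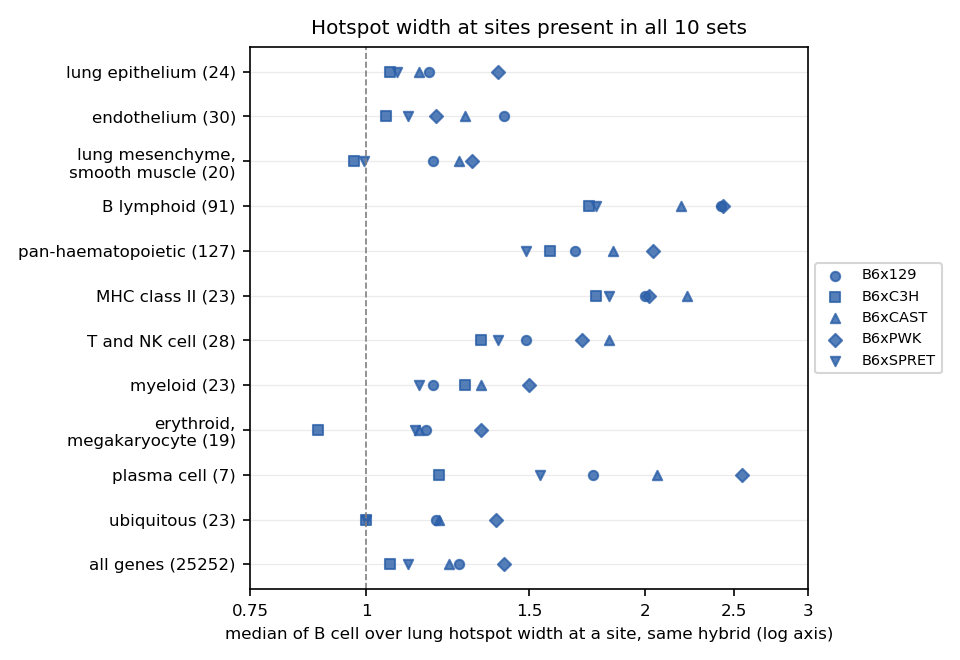
Median, over the sites open in all 10 sets, of the B cell hotspot width divided by the lung hotspot width in the same hybrid, on a log axis, for each list (number of sites in brackets). Each point is 1 hybrid. B lymphoid, pan-haematopoietic and MHC class II genes lie at 1.49 or more in every hybrid, while all genes lie between 1.06 and 1.41.

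Single genes differed in how far the tissues stood apart. H2-Aa, the alpha chain of the class II molecule I-A, covered 2839, 1502, 2863, 2546 and 2197 bp in lung and 9359, 4642, 9700, 8028 and 6116 bp in B cells. The groups did not overlap. At Ptprc they did, with 5776, 1701, 4350, 4362 and 2535 bp in lung and 7041, 3847, 11672, 8064 and 4056 bp in B cells, although B cells had more in every hybrid. Runx1, a factor of blood and other tissues, was covered more in lung in every hybrid (26047, 12494, 25652, 18345 and 15407 bp against 14304, 6444, 20128, 13697 and 8086 bp) and held 12 sites of the lung class and 1 of the B cell class. These lengths and counts do not allow for the larger lung sets.

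As a share of all covered bases of a set, which allows for the size of the set, B lymphoid loci took 0.139% to 0.164% in lung and 0.491% to 0.563% in B cells, a ratio of 3.32 between the means. The ratio was 3.10 for MHC class II and 2.28 for pan-haematopoietic loci, against 1.07 for all gene loci, 1.36 for T and NK cell, 1.31 for myeloid, 1.21 for erythroid and megakaryocyte, and 1.45 for plasma cell loci. The reference loci took 0.756 times as large a share in lung as in B cells, close to the 0.735 of T and NK cell and the 0.763 of myeloid loci. Lung epithelial loci took 0.0981% to 0.141% in lung and 0.0424% to 0.0527% in B cells, 2.41 times more in lung. Mesenchymal loci took 2.42 times more and endothelial loci 1.79 times more in lung. Lung and B cell values did not overlap for any list except the reference genes, which took 0.0371% to 0.0568% in lung and 0.0530% to 0.0732% in B cells. Those of all gene loci did not overlap either, with 69.6% to 72.3% in lung and 73.3% to 76.9% in B cells. A higher share in B cells without overlap thus does not by itself set a list apart. Of the sites open in all 5 lung sets, no B cell set had 59.1% at lung epithelial, 55.0% at endothelial and 58.2% at mesenchymal loci, against 44.8% in all gene loci, 31.4% at myeloid, 31.3% at T and NK cell, 24.8% at B lymphoid and 17.5% at pan-haematopoietic loci.

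**Figure D4:**
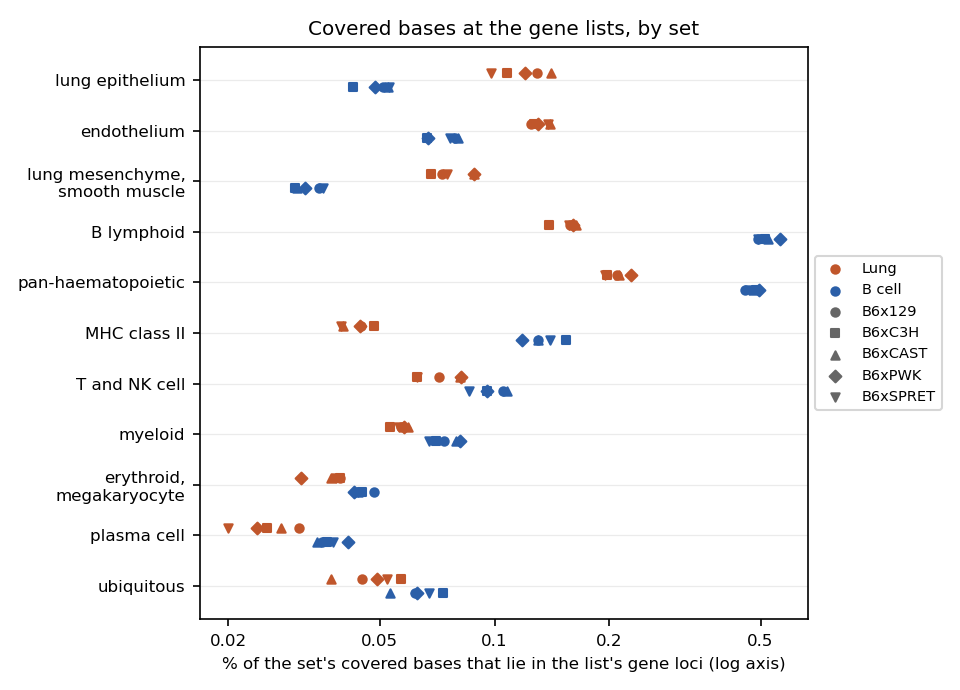
Percent of a set's covered bases that lie in the loci of each gene list (log axis), with lung in orange, B cells in blue and 1 symbol per hybrid. The 5 lung sets lie between 0.139% and 0.164% for B lymphoid genes and the 5 B cell sets between 0.491% and 0.563%.

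Hotspots absent from the other tissue of the same hybrid were then compared by sequence, a property not used to choose them. Unshared lung hotspots numbered 177527, 101250, 185841, 118616 and 111383, and unshared B cell hotspots 45175, 31209, 69462, 67172 and 36739. Over whole sets the median width was 246, 233, 257, 253 and 262 bp in lung and 284, 272, 279, 270 and 267 bp in B cells, wider in B cells in each hybrid. Among unshared hotspots the order was the reverse, and since a wider hotspot is more likely to overlap another, being unshared is not independent of width. The median width was 222 ± 14.6 bp for lung against 178 ± 8.93 bp (SD, n = 5), with lung wider in 5 of 5 hybrids (exact two-sided permutation test, adjusted over 4 features p = 0.0159). The ratio of observed to expected CpG was 0.265 ± 0.0170 against 0.227 ± 0.0203 (n = 5, exact permutation test, adjusted p = 0.0159). GC content was 48.6 ± 0.605% against 46.6 ± 1.81% and lung was higher in 4 of 5 hybrids (n = 5, exact permutation test, adjusted p = 0.0423). The calls on width, CpG and GC were lost with the 70000 highest-scoring hotspots per set and when any hybrid but B6xSPRET was left out. The share within 1 kb of a start, 9.47 ± 1.65% against 10.5 ± 1.98%, did not differ beyond the spread between hybrids (n = 5, exact permutation test, adjusted p = 0.413).

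Matches to 25 short motifs were counted on both strands per kb of unshared hotspot, each motif apart, so that 1 base can count for several. The motifs were also chosen with earlier results of these data known, which the p-values do not allow for. In all, 13 motifs were denser in lung and 9 in B cells at an adjusted threshold of 0.05, and 3 did not pass. For 18 motifs the 5 lung and 5 B cell values did not overlap. The octamer ATGCAAAT, bound by OCT factors at immunoglobulin promoters and enhancers, had 0.0480, 0.0440, 0.0379, 0.0447 and 0.0439 matches per kb in lung and 0.169, 0.197, 0.179, 0.154 and 0.154 in B cells. The PU.1 form GAGGAAGT had 0.117, 0.121, 0.102, 0.120 and 0.127 per kb in lung and 0.315, 0.401, 0.334, 0.305 and 0.312 in B cells. These were the largest ratios in favour of B cells, 3.90 and 2.84 (both n = 5, exact permutation test, adjusted p = 0.0110). The RUNX core TGTGGTT (ratio 1.57), the ETS-IRF composite GGAANNGAA (1.52), the E-box CAGGTG of E proteins (1.37), the interferon response core GAAANNGAA (1.35), the EBF palindrome CCCNNGGG (1.34), the ETS form CAGGAAG (1.15) and the NF-kB form GGGANTTTC (1.14) were also denser in B cells. The groups overlapped for the last 3 of these.

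Motifs of TEAD, NFI, forkhead and several other families were denser in lung. The TEAD motif ACATTCC, read by the factors of the Hippo pathway, had 0.266, 0.285, 0.261, 0.286 and 0.295 matches per kb in lung and 0.0892, 0.0912, 0.0937, 0.0997 and 0.0924 in B cells, a ratio of 2.99. The NFI motif CTTGGCA had 0.421, 0.442, 0.410, 0.424 and 0.424 per kb in lung and 0.164, 0.162, 0.148, 0.159 and 0.180 in B cells, a ratio of 2.61. The forkhead motif TGTTTAC had a ratio of 2.13, the CEBP motif TTGCNNAA 1.68, the NKX2 motif CACTTGA 1.63 and the AP-1 motif TGANTCA 1.54. All of these had 5 lung values above the 5 B cell values (n = 5, exact permutation test, adjusted p = 0.0110 for each). Further motifs denser in lung were the GC box GGGCGG (1.75), the E-box CAGCTG (1.46) and the GATA motif AGATAAG (1.40). The RFX motif GTTGCCATG (1.38), the SOX motif CCATTGT (1.28), the KLF motif CCACACCC (1.25) and the CArG box of serum response factor (1.14) followed, with overlap between groups for KLF alone. The GC box moves with CpG content, which was also higher in lung. The ETS form CCGGAAG, MEF2 (CTATTTATA) and CTCF did not pass (n = 5, exact permutation test, adjusted p = 0.556, 0.165 and 0.0863). The same numbers of motifs passed in each direction when only the central 150 bp of hotspots or only hotspots more than 1 kb from a start were counted. With the 70000 highest-scoring hotspots per set the calls of EBF and KLF were lost and CTCF was called denser in B cells (n = 5, exact permutation test, adjusted p = 0.0541, 0.306 and 0.0104). EBF and NF-kB kept their call only without B6xCAST among the fits that left out a hybrid, KLF only without B6xSPRET, and the ETS form CAGGAAG lost it without B6x129, B6xC3H or B6xCAST. Without B6xC3H, CTCF was called denser in B cells (4 hybrids, exact permutation test, adjusted p = 0.0376).

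**Figure D5:**
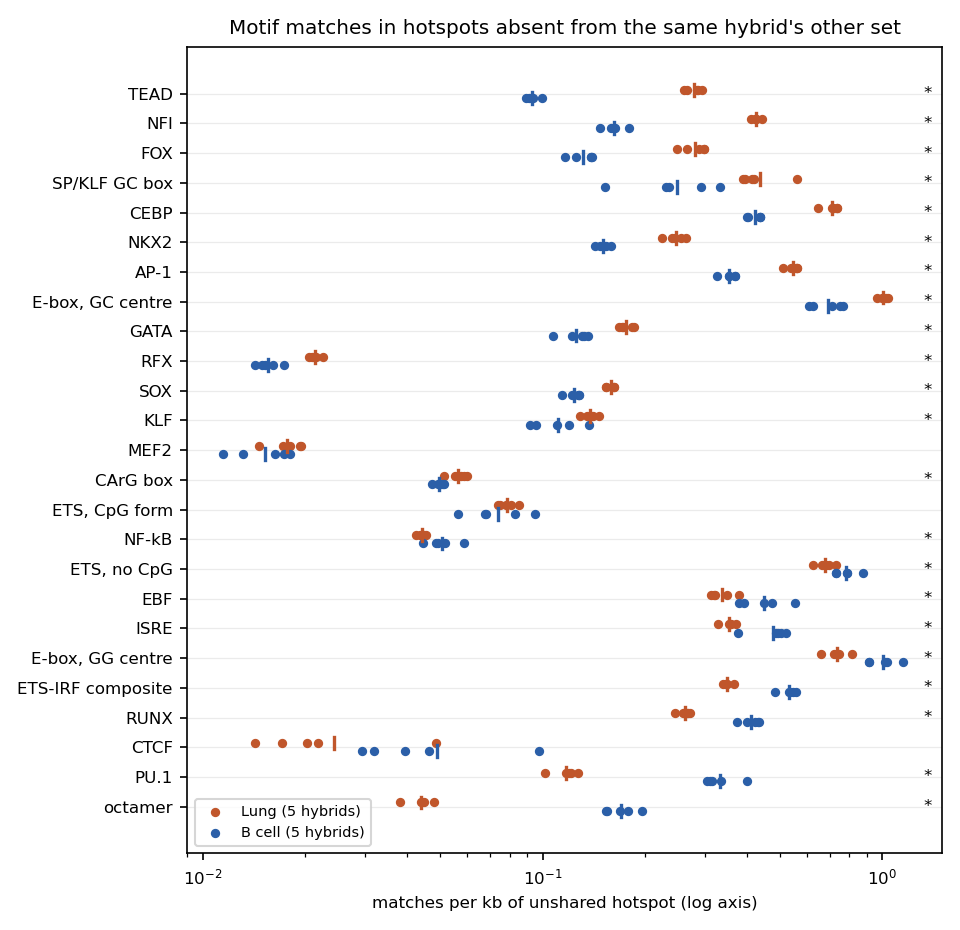
Matches per kb (log axis) of 25 motifs in hotspots absent from the other tissue of the same hybrid, with 5 lung values in orange, 5 B cell values in blue, bars at the means and asterisks at an adjusted exact permutation p under 0.05. TEAD and NFI lead in lung (ratios 2.99 and 2.61), the octamer and PU.1 in B cells (3.90 and 2.84).

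Whole sites held the motifs in like order. The octamer was found in 11.2% of the sites of the B cell class, 2.29% of the lung class, 6.10% of the sites in all 10 sets and 2.14% of all sites. The PU.1 form was found in 14.7% of the B cell class, 4.57% of the lung class and 4.77% of all sites. TEAD was found in 5.65%, 13.5% and 5.64% of these, and NFI in 8.08%, 18.7% and 8.61%. Sites in all 10 sets are wider, with a median of 938 bp against 515 bp in the B cell class and 461 bp in the lung class. Over all sites the median was 221 bp, and a wider site is more likely to hold a match. The CTCF motif, that of the insulator protein, set the shared sites apart. It was present in 14.2% of the sites in all 10 sets, 0.485% of the B cell class, 0.432% of the lung class and 1.80% of all sites. The GC box of SP and KLF factors was present in 42.6%, 8.08%, 12.7% and 9.25% of them. A match is a description of sequence and not evidence that the factor was bound.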

How the data were processed

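The authors trimmed reads with Trimmomatic, mapped them with BWA to mm10 and to a genome carrying the father's variants, kept uniquely mapped reads, combined all samples of 1 hybrid and tissue, and made the hotspot calls by hotspot2 at an FDR of 5%. Each deposited set lists hotspot positions with a −log10 FDR, which has a ceiling of 100 and was used only within a set. Read depth can change how many hotspots a set holds and how wide they are. From these files, autosomal hotspots of 5 lung and 5 B cell sets were merged by overlaps of at least 1 bp. Starts, exons and loci were those of 20807 protein-coding genes of GENCODE vM21, and sequence was read from GRCm38. The genes named were drawn from, per list, the 6 with the most sites open in all 5 sets and those whose promoter class departs from the commonest, the 10 with the most sites of each class by number and per 100 kb, and the 5 widest sites per class. Others were chosen after their values were seen, as were the sequences printed beyond promoters. The members, lists and motifs were chosen with earlier results of these data known.

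Tests were exact two-sided permutation tests of 5 against 5 sets, with Benjamini-Hochberg adjustment over 4 set measures, 4 features or 25 motifs. P-values measure the spread between hybrids. Pairs came from the hybrid named in the labels. No test was made on lists or site classes. Python 3.11.15, numpy 2.4.6, scipy 1.17.1 and matplotlib 3.10.9 were used. The statistics were tested on simulated data. Liver, kidney, stem cell and RNA-seq files were left out. Not every gene and sequence covered by the naming rule is reported here.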

Additional observations from a re-analysis of the deposited data

How the results depend on the processing

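Of 595 values under other settings, 477 kept their direction and their side of the threshold or stayed within the spread. With the replicate block by hybrid no p can pass 0.05, so the differences in hotspot number (93643), overlap share (-23.46 points), median width (44.0 bp), GC content (2.06 points) and CpG ratio (0.0388) kept their size but not their call, and 0 motifs passed in either direction (PU.1 adjusted p = 0.0781, 5 pairs, exact permutation test), which says nothing about stability.

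With the 70000 highest-scoring hotspots per set, 4 differences of lung minus B cells reversed, all without a call in that setting: covered length (-1.53 Mb), share near a start (0.0149 points), overlap share (0.494 points) and share of unshared hotspots near a start (0.0615 points). The ETS form CCGGAAG reversed too (-0.00707 per kb). Differences in width (83.3 bp), GC content (1.83 points) and CpG ratio (0.0321) lost their call. The lung class held 16370 sites, the B cell class 11738 and the class of all 10 sets 21680, and the shares of B cell sites in all 5 lung sets were 23.7% for B lymphoid, 27.7% for pan-haematopoietic, 36.8% for MHC class II and 52.2% for all genes. Without merging, these classes covered 13.4, 2.56 and 14.4 Mb in that order. The share of sites shared by lung over all genes was 70.1% at FDR 1%, 70.3% with 50 kb on each side and 71.8% in gene bodies, and that of B lymphoid genes was 54.7% with 50 kb. Promoters of the B cell class numbered 22 when only the 5′ end was used and 21 at FDR 1%.

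Leaving out each hybrid gave differences of 82108 to 102428 hotspots and -26.51 to -21.74 points in overlap share, and neither passed after adjustment over 4 tests with any hybrid left out (adjusted p 0.0571 to 0.114, exact permutation test). Median width differed by 36.5 to 50.75 bp, GC content by 1.26 to 2.76 points and the CpG ratio by 0.0345 to 0.0453, and each lost its call without B6x129, B6xC3H, B6xCAST or B6xPWK. From 12 to 13 motifs were denser in lung and 6 to 8 in B cells. The classes held 44981 to 57366 lung sites, 3796 to 5895 B cell sites (5616 without B6xC3H, 5895 without B6xSPRET) and 34150 to 39765 sites in all sets. The shares were 41.05% to 52.70% for B lymphoid genes and 69.2% to 71.7% for all genes. The Jaccard difference was 0.01525 to 0.02819, and with 4 hybrids its test cannot go below p = 0.0833 (exact permutation). Depth per set was not used and limits every count.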
